A study of Rattus norvegicus with 3 samples.

Results

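Solute carriers are the membrane proteins that move amino acids, sugars, ions, metals and vitamins into and out of cells and organelles, and their genes were compared between tendon stem/progenitor cells (TSPCs) taken from rats at 3 ages. A probe set, the group of short probes that reads 1 transcript on the array, belonged to the set when the platform's table gave it a single symbol made of Slc, a family number, the letter a and a member number. *Slc16a3*, *Slc2a1* and *Slc7a11* were left out by this rule. The probe sets were chosen by their deposited signal, which had to average 110 or more over the arrays, so that a carrier's presence in the set is not itself a finding. Of 266 such genes on the array, 146 genes (54.9%), read by 180 probe sets, passed. For comparison, 66.2% of the 14217 genes with a single symbol passed the same minimum. Each gene was read in the probe set with the largest mean. At the edge of the rule, the 3 probe sets just inside were those of *Slc47a1* (mean signal 111.65), *Slc25a15* (a weaker probe set, 111.96) and *Slc4a3* (112.33), and the 3 just outside were those of *Slc5a11* (109.09), *Slc26a6* (107.54) and *Slc25a38* (105.52). The rule takes only the letter a, so most nucleotide sugar carriers of family 35, whose symbols carry other letters, were not analysed here.

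The 3 arrays, 1 for each age, held RNA of TSPCs-1d, TSPCs-7d and TSPCs-56d, cultures grown out of Achilles tendon at 1, 7 and 56 days of age and written 1d, 7d and 56d beside values. According to the methods, tendons of at least 2 Sprague-Dawley animals were mixed for each culture, cells were seeded sparsely to form colonies, and the array cells were of passage 2, all grown in the same low glucose medium with serum. All groups were thus untreated cells of an outbred rat stock that had left the tendon and divided in a dish, and the cultures were polyclonal. With 1 array per age, no difference below has a replicate check, no p-value was computed, and a fold difference is the ratio of a pair of deposited signals. The median signal of all probe sets was between 107 and 114 on the arrays. A signal under 48.9, the 25th percentile of all signals, was treated as dim, and 0 of the 146 genes had a dim array. Of 11 measured tendon and mesenchymal markers, 10 reached the minimum, and their summed signals were 57487 at 1d, 61041 at 7d and 66145 at 56d. The tendon transcription factor gene *Scx* had 2255, 2578 and 2569, but other markers differed between the ages. *Tnmd*, a gene of mature tendon cells, had 543, 351 and 158, the matrix gene *Fmod* had 271, 774 and 408, the matrix gene *Tnc* had 5280.4, 7303 and 11185, and the surface enzyme gene *Nt5e*, under the minimum on average, had 41.9, 49.3 and 110.17. Blood and immune markers were measured for 7 genes, with summed signals of 675, 652 and 766. Of these, *Ptprc*, which marks leukocytes, was dim on every array (20.79, 24.96 and 30.60), and 4 reached the minimum. The macrophage gene *Lyz2* had 115, 138 and 198, and *Cd68* had 122, 109 and 143. The other genes at the minimum, *Cd14* (162, 157 and 155) and *Cd74* (143, 114 and 127), were highest in TSPCs-1d. All 4 measured endothelial genes were under the minimum. The part of these differences in the carriers' signals was not tested. As these are bulk cultures, fewer cells of a type and less RNA per cell cannot be told apart.

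Carriers of the solute carrier families are secondary transporters and facilitators: they use gradients of sodium, protons or the solute itself rather than burning ATP. In tendon fibroblasts they are known for bringing in proline, glycine and glutamine for collagen, the vitamin C that collagen hydroxylation needs, and the zinc and copper of matrix enzymes. Several work in pairs: many light chains of the amino acid exchangers of family 7 reach the cell surface only together with the heavy chain encoded by *Slc3a2*.

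The 146 solute carrier genes held 8 (5.48%) that were more than 2-fold apart in any comparison, against 6.86% of all genes above the minimum. *Slc7a7*, *Slc22a18* and *Slc17a7* were higher in TSPCs-56d, *Slc7a3*, *Slc1a3* (in 1 of its probe sets) and *Slc16a12* were lower in TSPCs-56d, and *Slc2a5* and *Slc19a2* were lower in TSPCs-7d. In TSPCs-7d over TSPCs-1d, 0 of 146 genes were more than 2-fold higher and 3 (2.05%) were lower, where 2.39% and 0.989% of all 9405 genes above the same minimum were. In TSPCs-56d over TSPCs-7d, 2 (1.37%) were higher and 1 (0.685%) was lower, against 1.70% and 2.41% of all genes. In TSPCs-56d over TSPCs-1d, 3 were higher and 3 lower (2.05% each), against 2.08% and 1.67%. The shares of carriers past 2-fold in TSPCs-56d thus lay near those of all genes or below them. At a cutoff of 1.5-fold, 4 carriers (2.74%) were higher and 9 (6.16%) lower in TSPCs-7d vs. TSPCs-1d, beside 5.20% and 2.89% of all genes. By this cutoff 10 (6.85%) were higher and 4 (2.74%) lower in TSPCs-56d vs. TSPCs-7d, against 4.86% and 5.74% of all genes. Between TSPCs-56d and TSPCs-1d, 11 were higher and 11 lower in TSPCs-56d (7.53% each), against 6.31% and 4.20%.

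**Figure D1:**
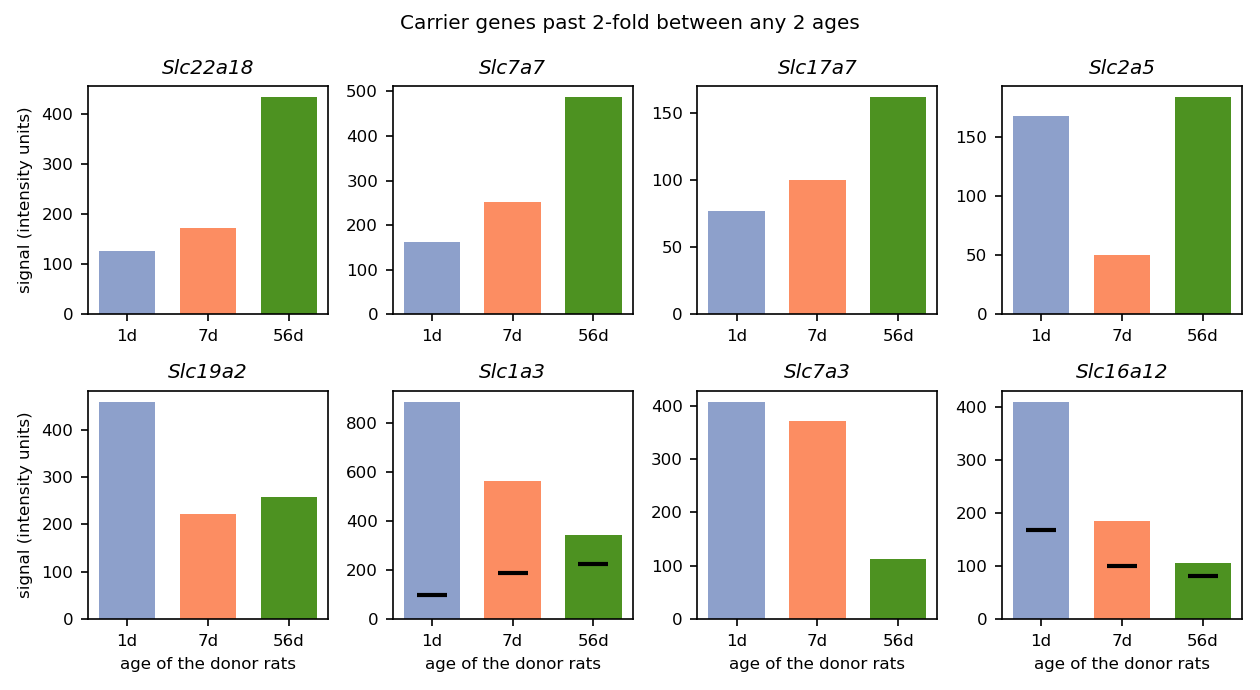
Array signal (intensity units, linear axes from 0) at 3 ages for the 8 carrier genes past 2-fold in any comparison, 1 bar per array, with black dashes for the weaker member probe set of *Slc1a3* and *Slc16a12*. *Slc7a7* is highest in TSPCs-56d (488), *Slc2a5* is lowest in TSPCs-7d (49.9), and the probe sets of *Slc1a3* run in opposite directions.

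The promoters of these genes differed in base content, from 2 to 30 CpG dinucleotides in 300 bases. The RefSeq windows below, of assembly GRCr8, run from 250 bases before to 50 bases after the start, and are shown for the 6 of the 8 genes that have exactly 1 window. Capitals mark motifs that were searched on both strands. The GC box was read as GGGCGG. The box bound by NF-Y, called the CCAAT box, was read as CCAAT. The E-box was read as CACGTG.
*Slc7a7* (chr15:31835634-31835933, minus strand): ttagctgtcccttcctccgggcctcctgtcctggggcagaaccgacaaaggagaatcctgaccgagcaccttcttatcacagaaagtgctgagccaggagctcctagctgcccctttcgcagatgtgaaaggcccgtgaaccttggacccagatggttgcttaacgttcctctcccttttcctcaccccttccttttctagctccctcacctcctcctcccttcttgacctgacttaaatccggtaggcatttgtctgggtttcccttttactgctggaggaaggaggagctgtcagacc
*Slc22a18* (chr1:208100923-208101222, plus strand): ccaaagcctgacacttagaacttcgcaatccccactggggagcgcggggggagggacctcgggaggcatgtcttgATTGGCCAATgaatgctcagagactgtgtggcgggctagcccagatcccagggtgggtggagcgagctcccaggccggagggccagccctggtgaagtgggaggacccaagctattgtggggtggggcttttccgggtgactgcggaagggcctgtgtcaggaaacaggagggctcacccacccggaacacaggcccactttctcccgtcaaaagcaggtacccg
*Slc17a7* (chr1:104785955-104786254, plus strand): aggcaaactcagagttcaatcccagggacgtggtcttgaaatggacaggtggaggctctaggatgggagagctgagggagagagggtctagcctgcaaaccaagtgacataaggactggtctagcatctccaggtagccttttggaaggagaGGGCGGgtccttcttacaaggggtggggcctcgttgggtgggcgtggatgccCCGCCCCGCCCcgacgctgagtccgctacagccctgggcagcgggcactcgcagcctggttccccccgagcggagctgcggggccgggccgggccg
*Slc16a12* (chr1:241621667-241621966, minus strand): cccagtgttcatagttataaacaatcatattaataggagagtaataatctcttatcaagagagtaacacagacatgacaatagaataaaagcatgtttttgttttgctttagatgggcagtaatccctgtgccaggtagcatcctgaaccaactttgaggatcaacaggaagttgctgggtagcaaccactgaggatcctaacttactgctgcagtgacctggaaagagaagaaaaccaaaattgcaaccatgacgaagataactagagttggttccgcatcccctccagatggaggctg
*Slc19a2* (chr13:79134868-79135167, plus strand): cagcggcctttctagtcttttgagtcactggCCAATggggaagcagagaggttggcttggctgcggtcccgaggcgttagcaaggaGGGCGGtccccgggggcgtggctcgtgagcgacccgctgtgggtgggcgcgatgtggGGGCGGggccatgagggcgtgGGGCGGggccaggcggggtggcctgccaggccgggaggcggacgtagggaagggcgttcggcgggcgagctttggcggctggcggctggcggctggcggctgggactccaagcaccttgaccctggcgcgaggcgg
*Slc2a5* (chr5:165865929-165866228, plus strand): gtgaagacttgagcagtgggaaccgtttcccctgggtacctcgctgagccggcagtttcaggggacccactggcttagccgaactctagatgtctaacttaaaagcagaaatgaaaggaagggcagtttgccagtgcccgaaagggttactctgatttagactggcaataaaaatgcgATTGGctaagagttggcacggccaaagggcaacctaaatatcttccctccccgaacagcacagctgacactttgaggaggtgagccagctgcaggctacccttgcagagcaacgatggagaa
The window of *Slc16a12*, a gene with less signal at each later age, holds 2 CpG dinucleotides and none of the motifs, and that of *Slc19a2* holds 30 CpG, 3 GC boxes and 1 CCAAT box. *Slc7a7* and *Slc22a18*, with more signal at each later age, differ from each other in having 7 and 12 CpG and 0 and 2 CCAAT boxes. Windows were found for 124 of the 146 genes. A GC box lies in 68.9% of their 132 windows and in 33.1% of all 33469 windows, a CCAAT box in 37.1% and 37.5%, and an E-box in 15.9% and 6.42%. The windows of the carriers, which were filtered by signal, held a median of 21 CpG, against 7 in all windows, which were not filtered. In the window of *Slc17a7*, 2 of the 3 GC boxes share 1 base. Such a match is a string of letters and not a measured site.

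Among 26 carriers of amino acids and peptides, the exchangers *Slc7a7*, *Slc7a5* and *Slc7a8* read higher in the oldest culture than in the newborn one, and the importers *Slc38a1* and *Slc7a3* lower. *Slc7a7*, the light chain of an exchanger that exports arginine and lysine, had signals of 162 at 1d, 251 at 7d and 488 at 56d. It was 3.001-fold higher in TSPCs-56d vs. TSPCs-1d, and the ratio over TSPCs-7d was 1.94. *Slc7a5*, the light chain of the leucine exchanger LAT1, had 937, 1354 and 1620.4 and was 1.73-fold higher in TSPCs-56d vs. TSPCs-1d. Both were thus lowest in the newborn culture. *Slc7a8*, a related light chain for neutral amino acids, had 128, 145 and 203, with a ratio of 1.59 for TSPCs-56d over TSPCs-1d. The shared heavy chain gene *Slc3a2* had 2662, 2976 and 3432, a smaller difference in the same order. *Slc7a6*, a light chain close to *Slc7a7*, did not follow this order and was highest in TSPCs-7d (499, 621 and 532). *Slc7a10*, a light chain for small neutral amino acids, had 108, 109 and 145.

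The importers of cationic amino acids of the same family went apart. *Slc7a3*, which encodes the arginine importer CAT3, had 408 at 1d, 371 at 7d and 112 at 56d, 3.31-fold lower in TSPCs-56d vs. TSPCs-7d and 3.64-fold lower than in TSPCs-1d. *Slc7a1*, encoding the widespread importer CAT1, differed by little, with 1179, 1313 and 1290.0 in its probe set of the highest signal and 633, 638 and 653 in the other. The older culture was therefore set apart for one importer and not visibly for the other.

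For neutral amino acids, *Slc1a5*, the glutamine and serine exchanger ASCT2, had 578 at 1d, 994 at 7d and 907 at 56d, 1.72-fold higher in TSPCs-7d vs. TSPCs-1d. *Slc1a4*, encoding its relative ASCT1, had 1806, 1882 and 1849, so that its 3 signals lay close together. *Slc38a1*, a sodium-coupled importer of glutamine and alanine, had 1034, 616 and 525, which is 1.97-fold lower in TSPCs-56d vs. TSPCs-1d. Its weaker member probe set also read highest in TSPCs-1d (345, 215 and 241), but a probe set under the minimum read highest in TSPCs-56d (53.4, 44.1 and 61.9). *Slc38a2*, a similar importer that cells raise when amino acids run short, had 3117, 2621 and 2350.2. Over the 6 genes of family 38, the median log2 ratio was -0.33 for TSPCs-7d over TSPCs-1d and -0.26 for TSPCs-56d over TSPCs-1d, and for the 7 of family 7 it was 0.18 and 0.43. *Slc66a3*, of a family that includes lysosomal amino acid exporters, had 5574, 5876 and 6905.

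*Slc1a3*, the glutamate importer GLAST, could not be read in one direction. Its probe set of the highest signal had 888, 562 and 342, whereas the other member probe set had 97.1, 188 and 226, and a probe set under the minimum had 42.9, 58.4 and 54.7. Between the outer ages (TSPCs-56d over TSPCs-1d) the log2 ratio was -1.38 in the brightest and 1.22 in the other member. It was the 1 gene of 26 with several member probe sets in which these lay on opposite sides with at least one past 1.5-fold, and this held in all 3 comparisons. Which transcripts each probe set reads was not tested. For the 26 genes, the median gap in log2 ratio between probe sets of a gene was 0.17 in TSPCs-7d over TSPCs-1d, 0.15 in TSPCs-56d over TSPCs-7d and 0.21 in TSPCs-56d over TSPCs-1d. The 90th percentile of this difference was 0.38, 0.54 and 0.68. Differences of that size were therefore within what a pair of probes for the same gene gave on these arrays, which leaves out the spread between cultures.

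**Figure D2:**
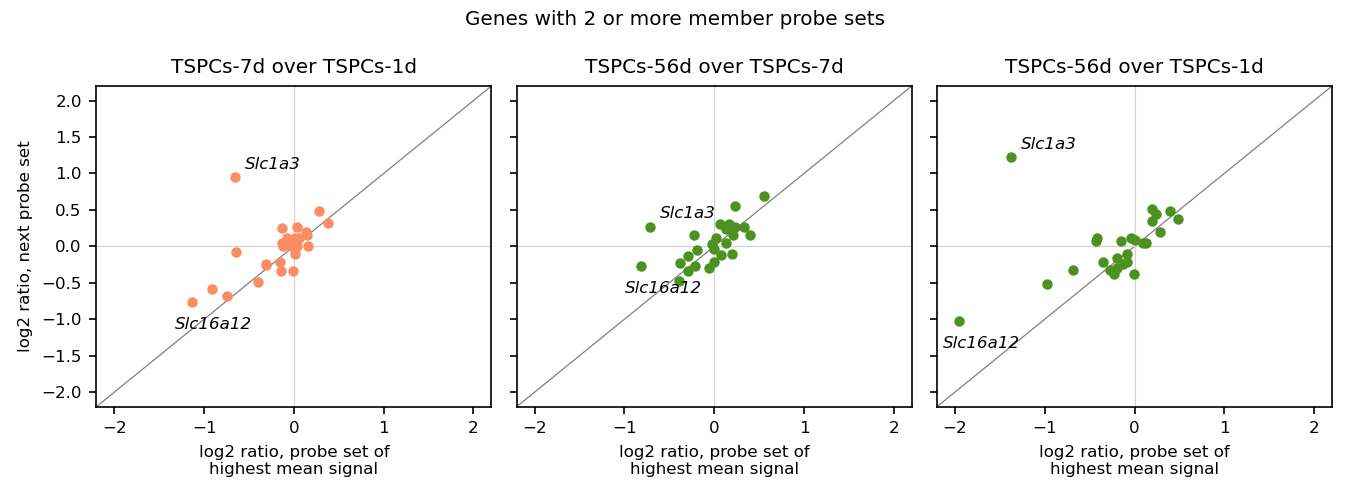
Log2 ratio of signals in the brightest probe set of a gene (horizontal) and in the next member probe set (vertical), 1 point for each of 26 carrier genes with 2 or more member probe sets, with a line of equality. *Slc1a3* lies far from the line in TSPCs-56d over TSPCs-1d (-1.38 and 1.22), while *Slc16a12* is below 0 on both axes.

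Among 12 carriers of sugars and inositol, most read higher in TSPCs-56d vs. TSPCs-7d. *Slc2a5*, the fructose facilitator, had 168 at 1d, 49.9 at 7d and 184 at 56d, 3.36-fold lower at 7d than at 1d. Its signal in TSPCs-7d was near the dim level, and the outer ages differed from each other by a ratio of 1.09. *Slc2a3*, a glucose facilitator of high affinity, had 642, 628 and 945 and was 1.47-fold higher in TSPCs-56d vs. TSPCs-1d. *Slc2a6*, a sugar carrier of lysosomes, had 121, 153 and 231, 1.91-fold higher in TSPCs-56d vs. TSPCs-1d. Both *Slc45a3*, of a family of proton-coupled sugar carriers (166, 208 and 271), and *Slc37a1*, a sugar phosphate carrier of the endoplasmic reticulum (86.4, 111 and 147), increased in signal from age to age, with ratios of 1.63 and 1.70 for TSPCs-56d over TSPCs-1d. *Slc37a4*, which carries glucose 6-phosphate into the same compartment, had 421, 406 and 449. The inositol carriers *Slc2a13* (815, 748 and 715) and *Slc5a3* (246, 243 and 251) were close to level, and *Slc50a1*, a sugar facilitator of intracellular membranes, had 428, 500.35 and 575. In the class as a whole, 11 of 12 genes read higher in TSPCs-56d vs. TSPCs-7d, with a median log2 ratio of 0.24, where 52.3% of all genes did and their median was 0.01. The class median for TSPCs-7d over TSPCs-1d was -0.04, and both comparisons rest on the same TSPCs-7d array. Among the genes outside the rule, *Slc2a1*, the common glucose facilitator, had 996, 840.1 and 1086.

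Creatine carriers were higher in the newborn culture. *Slc6a8*, the sodium-coupled creatine importer, had 914 at 1d, 485 at 7d and 569 at 56d, 1.89-fold lower at 7d than at 1d. Its other probe set gave the same order, with 448, 298 and 358. *Slc16a12*, a creatine carrier of the monocarboxylate family, had 409, 185 and 106, and was 2.21-fold lower in TSPCs-7d and 3.87-fold lower in TSPCs-56d vs. TSPCs-1d. In its weaker probe set (168, 99.1 and 82.0) the log2 ratios were -0.76 and -1.03. Both creatine carriers thus read lower in either older culture, in all member probe sets. The taurine importer gene *Slc6a6* behaved otherwise, with 7155, 7322 and 5599, and the glycine importer gene *Slc6a9* had 264, 322 and 369. *Slc17a5*, the lysosomal exporter of sialic acid, had 572, 494 and 544.

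Genes known for neurotransmitter vesicles were weak. *Slc17a7*, the vesicular glutamate carrier VGLUT1, had 76.6, 99.97 and 162 and was 2.11-fold higher in TSPCs-56d vs. TSPCs-1d, but its other probe set, under the minimum, had 90.2, 87.1 and 97.05. With each array divided by its median the log2 ratio was 0.98, under 2-fold. *Slc18a3*, the vesicular acetylcholine carrier, had 109, 99.8 and 160, with a ratio of 1.46 between the outer ages. Markers of glia and neurons were measured for 4 genes, with summed signals of 1056 at 1d, 1001 at 7d and 1582 at 56d. Of this list, *Sox10*, a defining factor of glia, had 50.02, 57.85 and 64.41, and *S100b*, which fibroblasts and cartilage cells also express, had 530, 535 and 1000.4. The neuronal genes of the list were *Snap25*, with 58.69, 54.73 and 46.40, and *Tubb3*, with 417, 353 and 471. Their part in these carriers' signals was not tested.

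Among 13 carriers of vitamins, nucleosides, choline and heme, the thiamine and vitamin C carriers read lower in TSPCs-7d than in the newborn culture. *Slc19a2*, a thiamine carrier, had 459 at 1d, 222 at 7d and 257 at 56d, 2.07-fold lower at 7d than at 1d. With a pseudocount of 32 its log2 ratio was -0.95, under 2-fold. *Slc23a2*, which brings in the vitamin C used by collagen hydroxylases, had 749, 491 and 828, and was 1.53-fold lower at 7d than at 1d and 1.69-fold higher in TSPCs-56d vs. TSPCs-7d. The folate carrier gene *Slc19a1*, a relative of *Slc19a2*, had 217, 245 and 296, so the family did not move as one. *Slc48a1*, which releases heme from lysosomes, had 1106, 912 and 1413, a ratio of 1.55 for TSPCs-56d over TSPCs-7d. *Slc44a1*, a choline carrier, had 1208, 1084 and 1596, and both of its other probe sets were likewise lowest in TSPCs-7d and highest in TSPCs-56d (530, 459 and 739.8, then 222, 216 and 347). The nucleoside facilitator gene *Slc29a1* had 670.3, 727 and 908, and *Slc49a4*, encoding a lysosomal carrier, had 968, 853 and 845. In the class, 7 genes of 13 read lower in TSPCs-7d vs. TSPCs-1d (median log2 ratio -0.16), where 45.8% of all genes did, and 10 read higher in TSPCs-56d vs. TSPCs-7d (0.21), where 52.3% did.

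**Figure D3:**
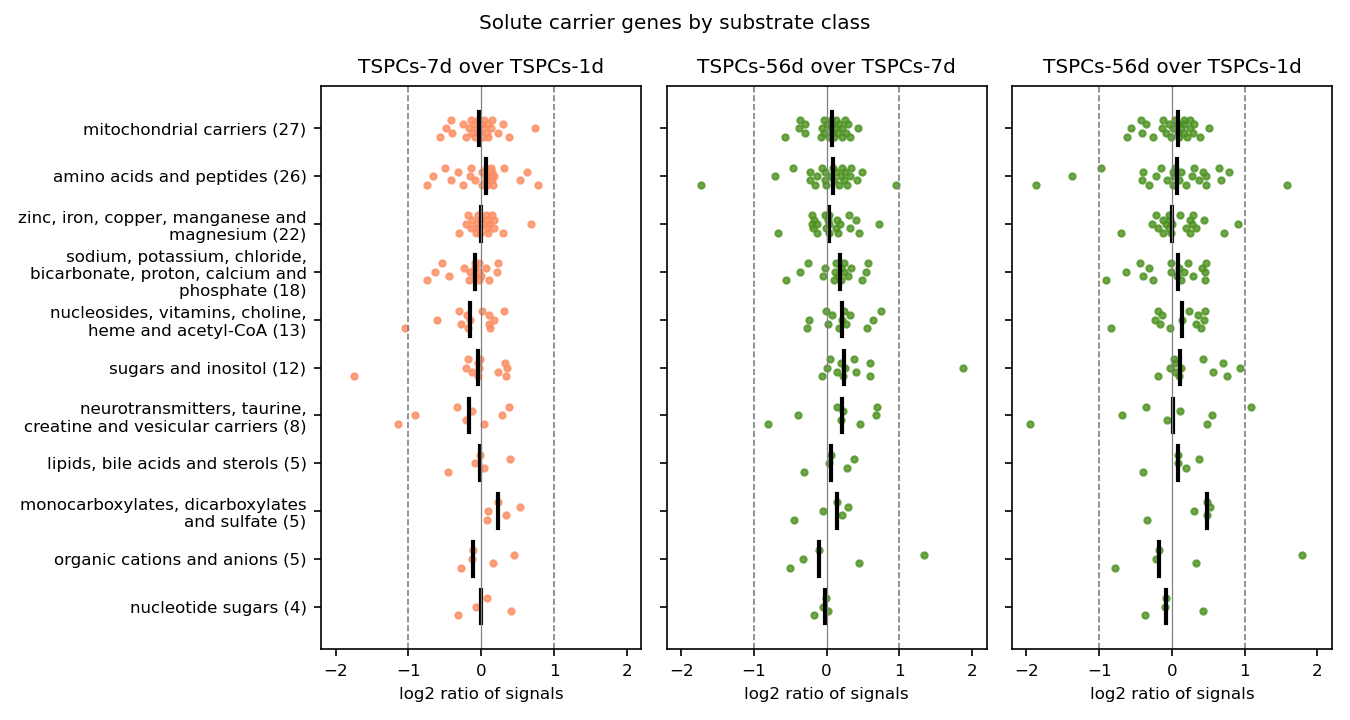
Log2 ratio of signals in 3 comparisons (panels) for 145 carrier genes (points, the urea carrier gene *Slc14a1* being left out) in 11 substrate classes, with the number of genes in brackets, a black bar at each class median and dashed lines at 2-fold. Class medians lie near 0 in TSPCs-7d over TSPCs-1d, from -0.17 to 0.23, and most points of all panels lie between the dashed lines.

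Of 28 genes for transporters of zinc, iron, copper, manganese and magnesium, 22 passed the signal minimum, where 54.9% of all carrier genes did. Of these 22, 0 were past 2-fold between any pair of ages, where 6.86% of all genes were. The 3 genes past 1.5-fold were all importers of family 39. *Slc39a14*, which brings zinc, manganese and free iron into the cytosol, had 506 at 1d, 573 at 7d and 945 at 56d, 1.87-fold higher in TSPCs-56d vs. TSPCs-1d. *Slc39a8*, its close relative, had 111, 178 and 181, and its difference lay between TSPCs-1d and the other ages (1.60-fold for TSPCs-7d over TSPCs-1d). *Slc39a10*, a zinc importer of the cell surface, had 458, 446 and 281, 1.63-fold lower in TSPCs-56d vs. TSPCs-1d. The importers thus ran in opposite directions, with *Slc39a10* lowest and *Slc39a14* and *Slc39a8* highest in the oldest culture. *Slc39a1*, a zinc importer found in most cells, had 4476, 4348 and 5456, *Slc39a7*, which releases zinc from the endoplasmic reticulum, had 2971, 3135 and 3216, and *Slc39a13*, whose loss causes a connective tissue disorder in humans, had 1778, 2017 and 2242. Of the 6 genes of family 30, which move zinc out of the cytosol, 0 were past 1.5-fold in any comparison, where 17.5% of all genes were. The iron exporter gene *Slc40a1* (174, 181 and 198) and the copper importer gene *Slc31a1* (849, 854 and 740.4) also stayed within that limit. In the list of 10 measured metal-binding genes, the metallothionein gene *Mt2A*, which cells raise under zinc, had 593, 476 and 1314, and *Mt1* had 121, 99.7 and 214. The iron oxidase gene *Heph* had 451, 91.6 and 63.2, which is 7.15-fold lower in TSPCs-56d vs. TSPCs-1d.

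Carriers of sodium, potassium, chloride, bicarbonate, calcium and phosphate held 18 genes, and 0 of these were past 2-fold, beside the same 6.86%. *Slc20a2*, a phosphate importer, had 631 at 1d, 406 at 7d and 468 at 56d in one probe set, 1.56-fold lower at 7d than at 1d, and a flatter 120, 113 and 126 in its other. *Slc20a1*, the other phosphate importer, had 4531, 4039 and 4501. *Slc12a7*, which exports potassium with chloride, had 308, 211 and 165, 1.87-fold lower in TSPCs-56d vs. TSPCs-1d. In a probe set under the minimum, *Slc12a7* ran the other way, with 65.99, 68.93 and 74.59. *Slc12a4*, of the same function, had 344, 342 and 420.0. The sodium-calcium exchangers also differed: *Slc8a1* had 1175, 1113 and 756, and *Slc24a3* had 1235, 1291 and 1382. A probe set of *Slc8a1* under the minimum was flatter, with 77.19, 66.05 and 72.34. *Slc4a1*, the anion exchanger of red blood cells, had 272, 163 and 206, 1.67-fold lower at 7d than at 1d, with 41.1, 41.7 and 31.4 in a probe set under the minimum. Of the red blood cell markers, *Hbb* had 138, 139 and 120.0 and *Alas2* was dim on every array (35.2, 35.8 and 43.5). Within the class, 14 of 18 genes read lower in TSPCs-7d vs. TSPCs-1d (median log2 ratio -0.08), where 45.8% of all genes did, and 13 of 18 read higher in TSPCs-56d vs. TSPCs-7d (0.18). The ATP-driven ion pumps, a list of 10 measured genes, held 0 past 2-fold in any comparison, where 6.86% of all genes were. Of these, *Atp1b1*, a subunit of the sodium pump, had 1891, 2262 and 1459.6.

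Mitochondrial carriers of family 25, which move metabolites through the inner membrane, held 27 genes. Between any pair of ages, 0 of these were past 2-fold and 2 were past 1.5-fold, where 6.86% and 17.5% of all genes were. *Slc25a10*, the carrier of malate and succinate, had 123, 206 and 138, 1.67-fold higher in TSPCs-7d vs. TSPCs-1d. Its probe set under the minimum was flatter, with 52.9, 55.1 and 45.2. *Slc25a25*, a calcium-regulated carrier of ATP and phosphate, had 674, 456 and 438, 1.54-fold lower in TSPCs-56d vs. TSPCs-1d. Its relatives *Slc25a24* (2671, 2613 and 2832) and *Slc25a23* (718, 786 and 942) did not share this order. Of the ADP/ATP exchangers, *Slc25a4*, the form of heart and muscle, had 8060, 7521 and 7345, and *Slc25a5*, the form linked to dividing cells, had 4217, 5203 and 6024. The log2 ratios of TSPCs-56d over TSPCs-1d were -0.13 and 0.51. *Slc25a3*, the phosphate carrier of ATP synthesis, had 4741, 5063 and 5159. The aspartate-glutamate carriers went apart, with 333, 289 and 225 for *Slc25a12* and 554, 722 and 557 for *Slc25a13*, whose other probe set was also highest in TSPCs-7d (106, 133 and 113). Class medians were -0.03, 0.07 and 0.08 for TSPCs-7d over TSPCs-1d, TSPCs-56d over TSPCs-7d and TSPCs-56d over TSPCs-1d.

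Among 5 genes of organic cation and anion carriers, *Slc22a18*, a gene imprinted in mice and humans whose substrate is not settled, had 126 at 1d, 172 at 7d and 435 at 56d. It was 3.46-fold higher in TSPCs-56d vs. TSPCs-1d, and the ratio over TSPCs-7d was 2.53. *Slc22a17*, a receptor for the iron-carrying protein lipocalin, had 322, 265 and 188, 1.72-fold lower in TSPCs-56d vs. TSPCs-1d. The carnitine importer gene *Slc22a5* had 144, 132 and 181, and *Slc22a15* had 195, 217 and 173. Of 20 genes of this class on the array, 5 passed the signal minimum, where 54.9% of all carrier genes did. Passing was set by the rule and is not a finding.

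Carriers of monocarboxylates, dicarboxylates and sulfate held 5 genes with 0 past 1.5-fold (17.5% of all genes), after *Slc16a3* had been left out by the rule. *Slc16a1*, the carrier MCT1, had 417, 527 and 581, and *Slc16a7*, the carrier MCT2, had 599, 639.6 and 471. The sulfate carrier gene *Slc26a1* had 123, 178 and 172. All 5 genes read higher in TSPCs-7d vs. TSPCs-1d, by a median log2 ratio of 0.23, where 54.2% of all genes did. The chaperone genes of the lactate and pyruvate carriers differed from each other. *Emb*, encoding embigin, had 334, 545 and 1014, 3.04-fold higher in TSPCs-56d vs. TSPCs-1d, and *Bsg*, encoding basigin, had 5086, 3859.9 and 4519. The mitochondrial pyruvate carrier genes *Mpc1* (4143, 3281 and 4287) and *Mpc2* (2307, 2389 and 2331) were within 1.5-fold.

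Among 5 carriers of lipids and 4 of nucleotide sugars, 0 genes were past 1.5-fold, where 17.5% of all genes were. *Slc27a4*, a fatty acid importer, had 604, 598 and 779, *Slc27a1*, the muscle and fat form, had 287, 271 and 328, and *Slc27a3*, of the same family, had 193, 141 and 147. Of the bile acid carrier family, *Slc10a3* had 316, 326 and 335, and *Slc10a7* had 116, 152 and 122. *Slc35a1*, which brings CMP-sialic acid into the Golgi, had 1465, 1389 and 1387, and *Slc35a2*, which brings UDP-galactose, had 749.9, 600.3 and 579.9. *Slc35a5*, of the same family, had 521, 693 and 703.

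**Figure D4:**
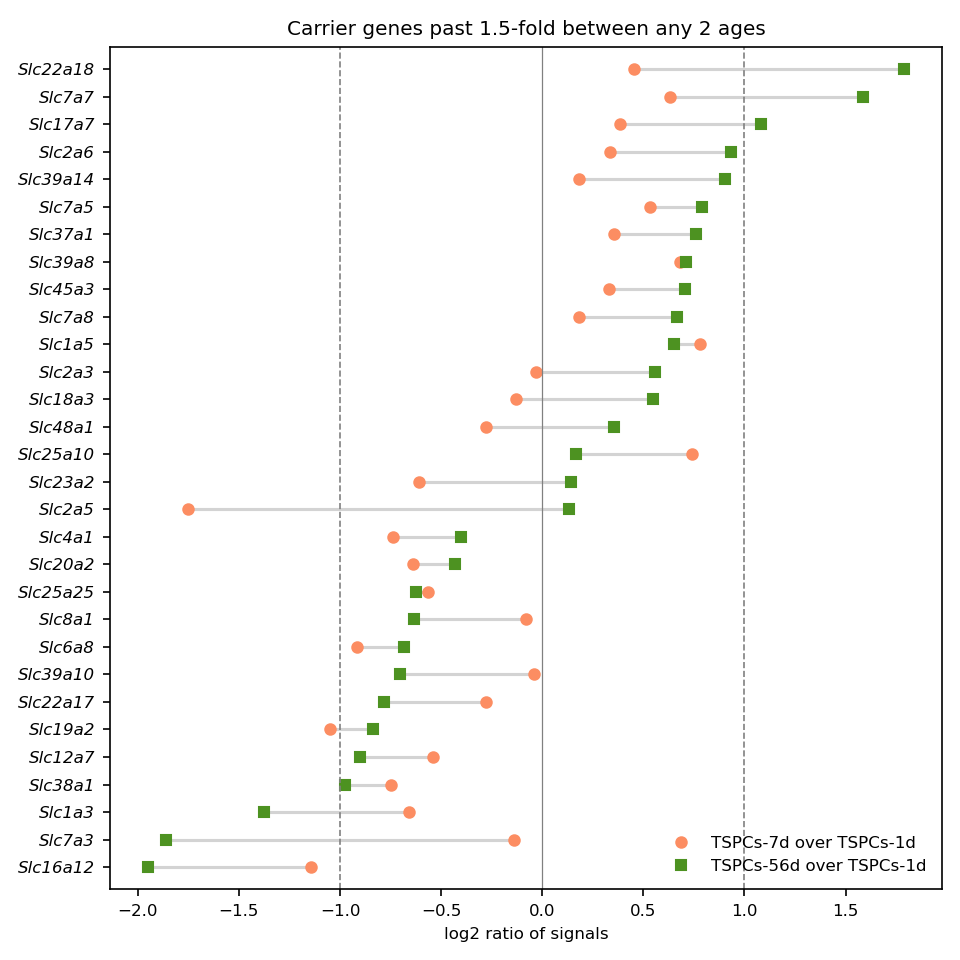
Log2 signal ratio, TSPCs-7d over TSPCs-1d (circles) and TSPCs-56d over TSPCs-1d (squares) for the 30 carrier genes whose highest and lowest signals were more than 1.5-fold apart, sorted by the second ratio, with dashed lines at 2-fold. *Slc22a18* (1.79) and *Slc7a7* (1.59) lie at the upper end for TSPCs-56d, *Slc7a3* (-1.86) and *Slc16a12* (-1.95) at the lower end, and *Slc2a5* (-1.75) is set apart in TSPCs-7d.

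Over all 146 genes, the highest and the lowest of the 3 signals differed by a median factor of 1.26, as against 1.23 for all genes above the minimum. Without regard to sign, the median log2 ratio was 0.26 for carriers and 0.19 for all genes in TSPCs-56d over TSPCs-1d. It was 0.15 and 0.16 in TSPCs-7d over TSPCs-1d, and 0.21 and 0.20 in TSPCs-56d over TSPCs-7d. The share past 1.5-fold between any pair of ages was 20.5% for carriers and 17.5% for all genes, and past 2-fold it was 5.48% and 6.86%. The median log2 ratio of carriers was -0.02 in TSPCs-7d over TSPCs-1d, 0.12 in TSPCs-56d over TSPCs-7d and 0.08 in TSPCs-56d over TSPCs-1d, beside 0.02, 0.01 and 0.03 for all genes. In TSPCs-56d over TSPCs-7d, 97 carriers read higher and 49 lower, so that 66.4% read higher where 52.3% of all genes did. Dividing each array by its median put these medians of carriers at -0.04, 0.04 and -0.01, and those of all genes at 0.01, -0.06 and -0.06. The sign of the last carrier median was thus not kept, though it stayed above that of all genes. The 3 genes left out by the rule had ratios for TSPCs-7d over TSPCs-1d of 0.267 in *Slc16a3*, the lactate exporter, 0.843 in *Slc2a1* and 1.81 in *Slc7a11*, the cystine importer.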

How the data were processed

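RNA of TSPCs from 3 ages was hybridized to Affymetrix Rat Genome 230 2.0 arrays, 1 per age. The deposited values are intensity signals on a linear scale for 31042 probe sets, which the authors normalized and summarized with MAS5 and RMA according to the methods, while the submitters' processing notes name MAS5. Raw intensities and detection calls were not used here. The number of arrays limits the precision.

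The platform's table gave 1 symbol to 20826 probe sets, several to 436 and none to 9780. All 146 genes matched the RefSeq gene table (GRCr8) by gene ID, used for names. Ratios were taken from signals as deposited, with cutoffs of 2 and 1.5 and no test. Classes follow the family number with single exceptions. Named genes are those past 1.5-fold, up to 3 of the highest mean signal per class, genes with opposed probe sets and listed genes past 2-fold, plus others chosen after their values were seen. Members, classes and lists were chosen with earlier results of these data known. The counting of ratios was tried on simulated data with planted changes, which checks the counting and not the spread between cultures. Alternatives covered the scaling, low signals, probe sets, the minimum and the cutoff. Python 3.11.15, numpy 2.4.6, pandas 2.3.3 and matplotlib 3.10.9 were used.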

Additional observations from a re-analysis of the deposited data

How the results depend on the processing

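No paired analysis was possible because each age has 1 array, and for the same reason no array could be left out. The counts of carriers past 2-fold and their medians were computed under 10 alternatives. Of 87 such values, 80 stayed within 1.5 times the count given above, or, for medians, within the typical difference between probe sets of a gene, and 7 did not. With a minimum of 200, which leaves 108 genes, 1 gene in place of 2 was higher in TSPCs-56d vs. TSPCs-7d. With a cutoff of 1.5-fold, 4 were higher and 9 lower in TSPCs-7d vs. TSPCs-1d, 10 higher and 4 lower in TSPCs-56d vs. TSPCs-7d, and 11 higher and 11 lower in TSPCs-56d vs. TSPCs-1d. Both follow from how the alternatives were made. Raising dim signals to the dim level could change no count or median, because 0 of the 146 genes had a dim array. For medians the limits were 0.17, 0.15 and 0.21 for TSPCs-7d over TSPCs-1d, TSPCs-56d over TSPCs-7d and TSPCs-56d over TSPCs-1d. The medians themselves, -0.02, 0.12 and 0.08, were smaller in size than these limits. A change of sign from 0.08 to -0.01, with each array divided by its median, thus counted as staying. For the ratios of the 8 genes past 2-fold, 42 values stayed within the same limits, 11 kept their sign but moved further, and 1 turned round. In the last case, the weaker probe set of *Slc1a3* gave a log2 ratio of 1.22 for TSPCs-56d over TSPCs-1d in place of -1.38. The mean over both probe sets gave -0.79. The cause was not tested. *Slc17a7* fell under 2-fold with a pseudocount of 32 (log2 ratio 0.84) and with each array divided by its median (0.98), and *Slc19a2* with the pseudocount (-0.95), which left 2 genes lower in TSPCs-7d vs. TSPCs-1d in place of 3. That scaling moved the median of all genes to -0.06 in TSPCs-56d over TSPCs-1d, where it was 0.03. Low signals limit the ratios of *Slc2a5* and *Slc17a7*.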

Other observations

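Most subunit genes of the lysosomal proton pump read lower in TSPCs-7d vs. TSPCs-1d. Of 16 measured genes of the vacuolar proton pump, which acidifies lysosomes, 15 had a lower signal in TSPCs-7d vs. TSPCs-1d, with a median log2 ratio of -0.36, and 16 of 16 had a higher signal in TSPCs-56d vs. TSPCs-7d, with a median of 0.27. Over all genes above the minimum, 45.8% and 52.3% did so. These comparisons share the TSPCs-7d array. *Atp6v1b2*, a subunit of the part that splits ATP, had 873 at 1d, 427 at 7d and 583 at 56d. It was the 1 gene of the 16 past 2-fold in any comparison, where 6.86% of all genes above the minimum were. *Atp6ap2*, an accessory subunit, had 3019.8, 1822 and 2461. Of 8 listed carriers of lysosomes, 6 read lower and 2 higher in TSPCs-7d vs. TSPCs-1d, with a median log2 ratio of -0.20. In TSPCs-56d vs. TSPCs-7d, 6 read higher and 2 lower, with a median of 0.12. *Slc66a1*, an exporter of cationic amino acids in this list, had 371, 298 and 334. The lysosomal sugar carrier gene *Slc2a6*, which is not in the list, had 121, 153 and 231. The list and both genes were chosen after their values were seen.

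Among organic anion carriers and ABC transporters, 1 gene of each list was past 2-fold. Of 12 measured organic anion carriers of the Slco group, 1 was more than 2-fold higher in TSPCs-7d vs. TSPCs-1d and 0 were lower, where 2.39% and 0.989% of all genes above the minimum were. Of the 12, 2 reached the minimum, where 66.2% of all genes with a single symbol did, and 6 were dim on every array. The higher one was *Slco2a1*, the prostaglandin importer, with 334, 1894 and 1616. Of 20 measured ABC transporters, which pump lipids and drugs with ATP, 1 was past 2-fold in any comparison, where 6.86% of all genes above the minimum were. This was the cholesterol exporter gene *Abca1* with 389.5, 275 and 646, which was 2.35-fold higher in TSPCs-56d vs. TSPCs-7d.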
